A study of Arabidopsis thaliana with 12 samples.

Results

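The comparison of 6-benzylaminopurine (BAP) with mock in root tips of Col-0, the wild type accession of Arabidopsis thaliana, rests on 6 of the 12 RNA sequencing libraries of the study, 3 from mock and 3 from BAP-treated plants. They were chosen by their column headings in the deposited table of normalised counts. The Col-0 plants carried no mutation named in the labels, and the other 6 libraries came from ago10-1, an insertion mutant of the gene for the small RNA-binding protein ARGONAUTE10, with the same pair of treatments. Per the labels and the study's methods, the seedlings were grown on plates for 6 days after germination, those of the BAP group were sprayed with 1 µM BAP and collected 2 h later, and those called mock in the labels were left untreated, so a spray without BAP was not part of the contrast. Each library was made from 50 mg of pooled tips, given as 1 mm long in the labels and as cut 1 to 3 mm above the tip in the methods. As a model the sample is a mixture of all cell types of the tip, and in such bulk tissue fewer cells of a type and less RNA per cell cannot be told apart.

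BAP is a synthetic cytokinin (CK). CKs bind histidine kinase receptors in the endoplasmic reticulum and plasma membrane, phosphate is passed on by AHP phosphotransfer proteins to type-B response regulators in the nucleus, and these transcription factors switch on genes within minutes to hours. Among their best known direct targets are the type-A response regulators, which dampen the same pathway, and CK oxidases, which degrade the hormone. In the root tip, CK limits the size of the meristem, promotes the change from division to differentiation and takes part in laying out the vascular cylinder, where AHP6 keeps CK signalling low in the protoxylem.

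Values below are normalised counts, in which a library's size factor divides the reads of a gene, and they are given in the order mock 1, A and B and then BAP 1, 2 and 3. A pair of mock columns had the same heading, so that their group was certain but not their replicate number, and they are called A and B. The Col-0 libraries held between 19394256 and 34899796 reads on genes. Fold changes are on the scale of log2(normalised count + 1), with ± the standard error, and a gene was called higher or lower where limma gave an unadjusted p under 0.01 in the fit of the 6 libraries.

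The library BAP 1 stood apart from the other 5 Col-0 libraries. Its log2 values correlated with theirs at 0.889 to 0.954, against 0.952 to 0.985 among the others, and 4022 genes lay more than 2-fold from the mean of BAP 2 and BAP 3. By the same measure, against the other libraries of the group, BAP 3 had 2394 such genes, BAP 2 had 882 and the mock libraries 788 to 1394. The median SD of a gene's log2 values was 0.34 among the BAP libraries and 0.20 among the mock libraries. Summed counts of the marker genes of differentiated tissue were highest in BAP 1: the 18 xylem genes summed to 14779, 11176 and 8757 in mock and 23997, 10784 and 8344 in BAP libraries, and the 9 Casparian strip genes to 26397, 21398 and 11440.2 in mock and 41978, 17452 and 11083 in BAP libraries. The 12 genes of green shoot tissue, in which a root tip should be poor, summed to 497, 578 and 193 in mock and 2056, 350.2 and 176 in BAP libraries, and those of dividing cells were lowest in BAP 1, with 13129, 11836 and 15043 in mock and 9938, 12919 and 13934 in BAP libraries over 20 genes. Mitochondrial genes took 0.169% of the reads of BAP 1 and 0.0515% to 0.0939% elsewhere in Col-0. The replicate 1 BAP library of ago10-1 was likewise the highest of its genotype in mitochondrial reads (0.158%) and in the xylem, Casparian strip and green tissue sums (26886, 35671 and 1016). The part of these differences in the results was not tested, so values without both replicate 1 libraries (2 against 2) are given where they matter.

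**Figure D1:**
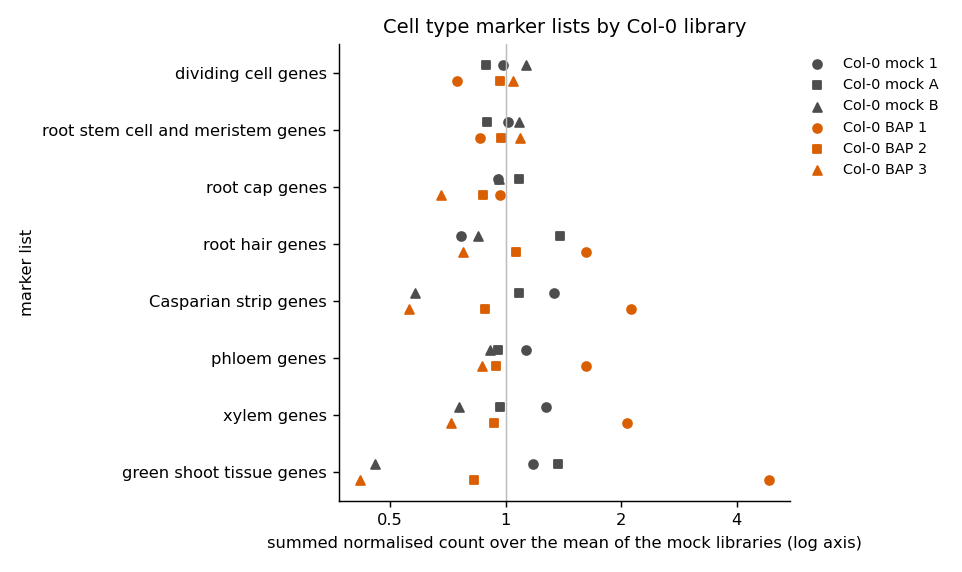
Summed normalised counts of 8 marker lists in each Col-0 library, divided by the mean of the 3 mock libraries, on a log axis (grey, mock; orange, BAP; symbols, libraries). BAP 1 was the highest library for xylem, Casparian strip, phloem, root hair and green tissue markers and the lowest for dividing cells.

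Of 19206 genes with a mean of at least 10 normalised counts over the 12 libraries, 29 were called after 2 h of BAP, which is 0.151%. Among these, 25 were higher (0.13% of the genes tested) and 4 lower (0.0208%). If p-values were spread evenly, 192 genes would fall under 0.01, so the number called was below that level. With so small a share called, most short gene lists would hold no called gene. An absence of calls in a list below is therefore not a result about that list. No gene reached an adjusted p under 0.05 by limma with Benjamini-Hochberg adjustment, where the smallest adjusted p rounded to 1, or by edgeR. DESeq2 on the recovered reads gave 4. At an unadjusted p under 0.05 there were 226 genes, or 1.18%. All 29 called genes had groups that did not overlap, for which an exact two-sided permutation test of 3 libraries against 3 gives its smallest possible p of 0.1. That alone is common, since in 2.96% of all genes tested every BAP library lay above every mock library, and in 2.29% every BAP library lay below. Without BAP 1 the fit called 42 genes higher and 40 lower, with 18 of the 29 among them, and without both replicate 1 libraries it called 42 and 26, with 13 of the 29. With replicate 1 set against the other replicates as a block, it called 59 higher (0.307%) and 8 lower (0.0417%), with 27 of the 29 among them (TET15 and CYP96A8 missed the threshold), and named genes that it added are given below as called with the block. All 29 kept their direction in both of those fits.

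**Figure D2:**
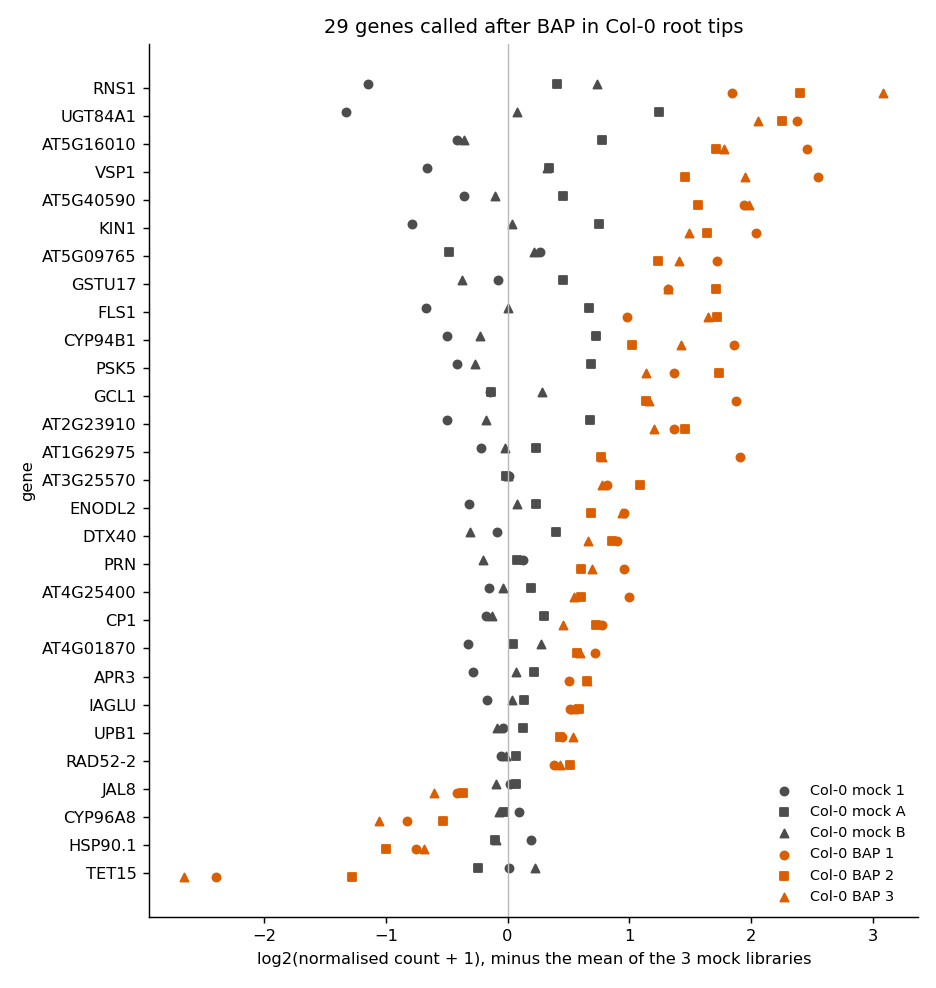
The 29 genes called after BAP in Col-0, with log2(normalised count + 1) of each library minus the mean of the 3 mock libraries (grey, mock; orange, BAP; symbols, libraries). The 25 genes called higher and the 4 called lower have no overlap between treatments, and the spread among mock libraries is widest for RNS1 and UGT84A1, where mock 1 is lowest.

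DESeq2 reached an adjusted p under 0.05 for GSTU17 (0.0184), AT5G16010 (0.0214), AT5G40590 (0.00305) and GCL1 (0.0234), all of them higher after BAP and all called by limma. GSTU17 (AT1G10370, chromosome 1, 3396883 to 3398358), a tau class glutathione transferase, had 149, 216 and 121 in mock and 394, 518 and 394 in BAP libraries, a log2 fold change of 1.45 ± 0.26. AT5G40590 (chromosome 5, 16251318 to 16252434), a protein with a cysteine- and histidine-rich C1 domain, had 33.1, 59.1 and 39.8 in mock and 167, 129 and 172 in BAP libraries, a log2 fold change of 1.83 ± 0.30. In both genes the gap between the lowest BAP and the highest mock library was wider than the range of the mock libraries. AT5G16010 (chromosome 5, 5227747 to 5229117), annotated as a steroid dehydrogenase family protein, stood at 124, 284 and 129 in mock and 918, 546 and 573 in BAP libraries (log2 fold change 1.99 ± 0.37), and GCL1 (AT5G65280, chromosome 5, 26085593 to 26088277), a GCR2-like protein, at 123, 124 and 165 in mock and 501, 300.2 and 306 in BAP libraries (log2 fold change 1.39 ± 0.26). BAP 1 was the highest library for these last genes, and without both replicate 1 libraries their log2 fold changes were 1.54 and 1.08.

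Sequences before the annotated start of genes called higher are shown because several of them carried the same short motifs. In the 250 bases upstream, searched on both strands in the RefSeq annotation of TAIR10.1, the G-box CACGTG, bound by bHLH and bZIP factors, stood in 4 of 25 genes called higher (16%) and in 7.24% of 19155 promoters of genes tested. The overlapping core of the abscisic acid response element, ACGTGG, stood in 6 of 25 (24%) against 8.89%, the TGA factor core TGACGT in 6 of 25 against 7.87%, and the MYB element ACCTACC in 3 of 25 (12%) against 1.22%. Of the sites bound by type-B response regulators, AGATCT stood in 1 of 25 (4%) against 5.69%, and AAGATT in 6 of 25 (24%) against 29.5%. The dehydration element CCGAC and the W-box TTGACC each stood in 2 of 25, against 12.9% and 12.3%, and the GCC-box GCCGCC and the heat shock element in none, against 1.98% and 0.428%. With so few genes these shares are a description of the sequences and not of a factor.

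The 4 genes with a G-box, then KIN1 and UGT84A1 with ACGTGG, and last PSK5 and TET15, the genes called higher and lower that held AGATCT, are printed 5′ to 3′ toward the start of the gene, with any of the 10 motifs, on either strand, in capitals.
AT5G16010 (chr5:5227497-5227746, plus strand): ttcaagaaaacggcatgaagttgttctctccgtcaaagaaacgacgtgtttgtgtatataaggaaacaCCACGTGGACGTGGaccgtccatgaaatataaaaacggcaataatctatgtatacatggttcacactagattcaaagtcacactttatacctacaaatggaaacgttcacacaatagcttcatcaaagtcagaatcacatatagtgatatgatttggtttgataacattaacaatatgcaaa
GSTU17 (chr1:3398359-3398608, minus strand): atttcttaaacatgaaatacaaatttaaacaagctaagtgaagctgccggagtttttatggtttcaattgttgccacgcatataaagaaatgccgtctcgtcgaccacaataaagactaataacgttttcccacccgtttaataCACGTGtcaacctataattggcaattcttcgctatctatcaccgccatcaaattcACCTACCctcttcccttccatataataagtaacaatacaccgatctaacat
GCL1 (chr5:26088278-26088527, minus strand): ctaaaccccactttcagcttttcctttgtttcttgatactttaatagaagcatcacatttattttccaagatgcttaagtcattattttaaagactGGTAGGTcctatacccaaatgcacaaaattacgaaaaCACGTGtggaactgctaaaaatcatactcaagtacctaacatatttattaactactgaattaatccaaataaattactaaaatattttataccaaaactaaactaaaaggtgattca
PRN (chr3:21893562-21893811, plus strand): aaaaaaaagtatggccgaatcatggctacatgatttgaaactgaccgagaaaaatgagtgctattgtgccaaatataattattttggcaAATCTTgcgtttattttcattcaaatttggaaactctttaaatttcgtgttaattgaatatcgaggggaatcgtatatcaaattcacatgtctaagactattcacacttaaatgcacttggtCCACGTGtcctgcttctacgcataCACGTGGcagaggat
KIN1 (chr5:5209467-5209716, plus strand): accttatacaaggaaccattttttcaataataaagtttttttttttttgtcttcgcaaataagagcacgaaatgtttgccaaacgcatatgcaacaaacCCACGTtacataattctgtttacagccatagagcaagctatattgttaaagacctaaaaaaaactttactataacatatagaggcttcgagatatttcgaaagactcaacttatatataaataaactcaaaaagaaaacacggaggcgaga
UGT84A1 (chr4:8850517-8850766, minus strand): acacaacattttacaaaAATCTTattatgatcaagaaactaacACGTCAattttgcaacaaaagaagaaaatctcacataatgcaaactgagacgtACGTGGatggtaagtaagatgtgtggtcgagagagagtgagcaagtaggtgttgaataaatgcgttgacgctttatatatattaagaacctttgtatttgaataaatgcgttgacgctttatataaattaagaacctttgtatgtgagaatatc
PSK5 (chr5:26351123-26351372, plus strand): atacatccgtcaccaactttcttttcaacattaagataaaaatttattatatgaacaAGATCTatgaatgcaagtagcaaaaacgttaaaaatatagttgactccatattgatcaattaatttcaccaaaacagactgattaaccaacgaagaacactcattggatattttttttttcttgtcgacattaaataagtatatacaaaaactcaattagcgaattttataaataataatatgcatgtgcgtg
TET15 (chr5:23425648-23425897, minus strand): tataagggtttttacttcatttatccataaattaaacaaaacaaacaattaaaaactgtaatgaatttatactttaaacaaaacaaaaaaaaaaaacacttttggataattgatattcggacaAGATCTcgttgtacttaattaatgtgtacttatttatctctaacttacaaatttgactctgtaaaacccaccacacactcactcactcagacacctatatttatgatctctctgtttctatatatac
In GSTU17 the G-box began 106 bases before the start and ACCTACC 51 bases before it. GCL1 held the same pair of motifs, the G-box 117 and the MYB element 154 bases before the start, and PRN held the G-box in both of its copies close to the start, at 38 and 15 bases.

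CK signalling genes were described by their roles. The receptor WOL (AT2G01830, also known as CRE1 and AHK4) stood at 3508, 4858 and 4473 in mock and 4824, 4913 and 5223 in BAP libraries, a log2 fold change of 0.23 ± 0.15. The phosphotransfer protein AHP1 had 398, 1476 and 1116 in mock and 1916, 1561 and 1355 in BAP libraries, with mock 1 far below the rest, so that its log2 fold change was 0.87 ± 0.47 although BAP 3 lay below mock A. AHP6 (AT1G80100), the pseudo-phosphotransfer protein that inhibits CK signalling, was lower in every BAP library than in any mock library, with 75.6, 38.3 and 69.3 in mock and 32.9, 19.1 and 32.9 in BAP libraries. Its log2 fold change of -1.07 ± 0.41 missed the threshold, and 2.29% of all genes tested were separated in the same direction. Against 0.151% of all genes, none of the 8 receptor and phosphotransfer genes tested was called. Of these 6 had a positive log2 fold change, and the median was 0.09, against 51.9% positive and a median of 0.01 over all genes tested. With both replicate 1 libraries left out, 3 of the 8 were positive and the median was -0.14.

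The type-B response regulators are the transcription factors of the pathway. All 6 that were tested had negative log2 fold changes, with a median of -0.12 and none called (against 0.151% of all genes). All 6 stayed negative, with a median of -0.24, without both replicate 1 libraries. The one nearest to the threshold, RR14, had 26.0, 27.8 and 25.1 in mock and 8.21, 20.3 and 8.5 in BAP libraries (log2 fold change -1.15 ± 0.48). Its groups did not overlap, and in 2.29% of all genes tested every BAP library likewise lay below every mock library. RR10 and RR12, with RR1 the main type-B regulators of the root, had log2 fold changes of -0.10 and -0.04.

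None of the 10 type-A response regulators, the negative regulators that CK is known to induce, was called, against 0.13% of all genes called higher, and 8 had a positive log2 fold change (median 0.38). RR3 (AT2G41310, also called ARR8) came closest, with 2003, 2604 and 2192 in mock and 3422, 2966 and 2908 in BAP libraries and a log2 fold change of 0.46 ± 0.14. It was the only type-A gene of the 10 in which all BAP libraries lay above all mock libraries, against 2.96% of all genes tested. Its paralogue ARR9 had 871, 995 and 787 in mock and 1514, 1192 and 921 in BAP libraries (log2 fold change 0.43 ± 0.20), and ARR4 had 1694, 2726 and 2802 in mock and 2743, 3271 and 3256 in BAP libraries (log2 fold change 0.39 ± 0.22). In ARR9 the groups overlapped through BAP 3 and mock A, and in ARR4 through BAP 1.

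Mock 1 was the lowest of all 6 libraries in RR3 and ARR4, and also in ARR3, ARR5, ARR6, ARR7 and ARR15. ARR5 had 470.3, 1011 and 847 in mock and 892, 855 and 867 in BAP libraries, ARR6 had 405, 734 and 616 in mock and 992, 628 and 641 in BAP libraries, ARR3 had 666, 1643 and 1494 in mock and 969, 1904 and 1944 in BAP libraries and ARR15 had 10.6, 62.6 and 95.1 in mock and 24.6, 57.2 and 68.0 in BAP libraries. In ARR5 the 3 BAP libraries lay between mock B and mock A, so that mock 1 alone was low. ARR7 was low and variable at 2.36, 19.1 and 10.3 in mock and 46.5, 40.5 and 6.37 in BAP libraries (log2 fold change 1.42 ± 0.97), and RR16 and RR17 had log2 fold changes of -0.50 ± 0.78 and -0.14 ± 0.65. Summed over the 10 genes, type-A counts were 6142, 9859 and 8875 in mock and 10630.4, 10948 and 10644 in BAP libraries, so that the sums of the BAP libraries were all higher, and close to one another. Without both replicate 1 libraries 5 of the 10 had a positive log2 fold change and the median was 0.06, with ARR5 and ARR6 at -0.10 and -0.08.

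**Figure D3:**
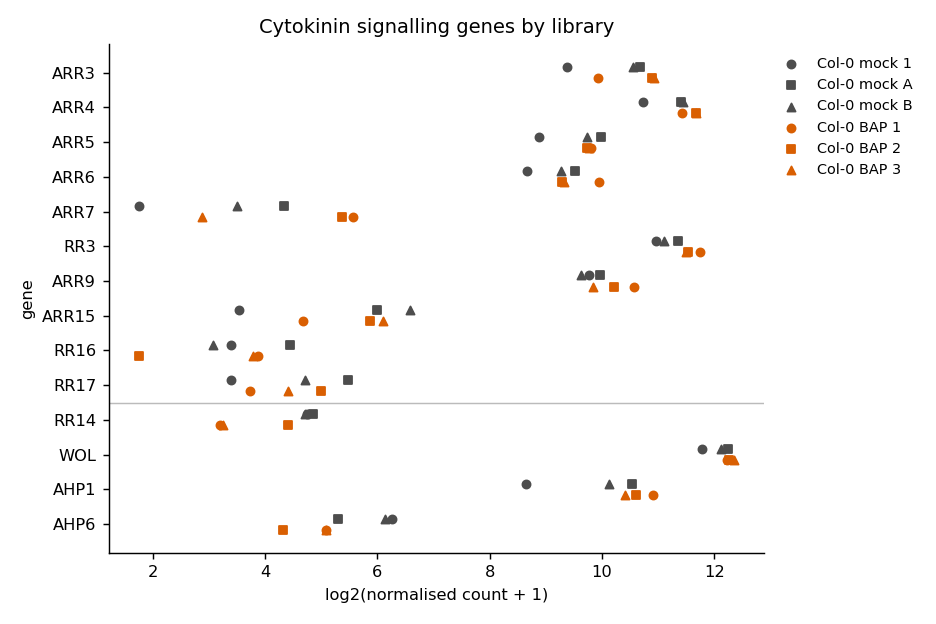
log2(normalised count + 1) of the 10 type-A response regulators (above the line) and of RR14, WOL, AHP1 and AHP6 (below it) in each Col-0 library (grey, mock; orange, BAP). The treatments do not overlap for RR3, RR14 and AHP6, and mock 1 is the lowest library for RR3, ARR3, ARR4, ARR5, ARR6, ARR7, ARR15, WOL and AHP1.

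None of the 4 CK oxidases tested, which degrade CKs, was called (against 0.151% of all genes), and their median log2 fold change was 0.24, or 0.13 without both replicate 1 libraries. LOG8, of the family that releases active CKs, had 516, 693 and 757 in mock and 850.0, 814 and 919 in BAP libraries (log2 fold change 0.41 ± 0.17), and none of the 13 synthesis and activation genes was called. UGT85A1, which glucosylates zeatin, had 1081, 843 and 986 in mock and 542, 714 and 867 in BAP libraries (log2 fold change -0.47 ± 0.20). The 6 CK response factors had a median of -0.14, with 1 positive (3 of 6 and 0.05 without both replicate 1 libraries). SHY2, an auxin repressor that CK induces at the boundary of the meristem, had 93.3, 132 and 81.1 in mock and 212, 101 and 129 in BAP libraries (log2 fold change 0.48 ± 0.34).

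AGO10 (AT5G43810) itself stood at 1039.8, 696 and 914 in mock and 568, 926 and 1051 in BAP libraries, without a difference beyond the spread (log2 fold change -0.09 ± 0.27). The 5 HD-ZIP III genes, transcription factors of vascular patterning that AGO10 protects from miR165/166, had log2 fold changes from -0.06 to 0.22 with none called, against 0.151% of all genes. PHV was the highest of them, with 539, 406 and 475 in mock and 542, 569 and 529 in BAP libraries and a log2 fold change of 0.22 ± 0.15. REV had 1312, 1086 and 1087 in mock and 1502, 1066 and 993 in BAP libraries, PHB 1244, 920.2 and 1163 in mock and 980.1, 1071 and 1109 in BAP libraries, ATHB-15 1209.9, 1155 and 1035 in mock and 1530.4, 1156 and 973 in BAP libraries and HB-8 766, 739 and 729.9 in mock and 876, 748 and 714 in BAP libraries. The groups overlapped in all 5.

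Among the genes called higher were enzymes of phenolic metabolism. UGT84A1 (AT4G15480, chromosome 4, 8848801 to 8850516), which forms glucose esters of hydroxycinnamates, had 46.1, 278 and 124 in mock and 612, 561 and 489.8 in BAP libraries and a log2 fold change of 2.23 ± 0.59. FLS1 (AT5G08640, chromosome 5, 2803833 to 2805606), the main flavonol synthase, had 1843, 4672 and 2942 in mock and 5808, 9689.7 and 9191 in BAP libraries and a log2 fold change of 1.45 ± 0.36. In both the lowest library was mock 1, and without both replicate 1 libraries the log2 fold changes were 1.49 and 1.35. IAGLU (AT4G15550), annotated as a glucosyltransferase of indole-3-acetate, had 1056, 1305 and 1215 in mock and 1696, 1779.7 and 1734 in BAP libraries (log2 fold change 0.55 ± 0.12). UGT84A1 lies beside close relatives, so reads may have been shared among them.

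All 9 flavonol pathway genes tested had positive log2 fold changes, with a median of 1.06, the second highest of the 36 lists, and 1 was called, against 0.13% of all genes. With the block 6 were called, TT4, TT5 and UGT78D2 among them, against 0.307%. TT5 (chalcone isomerase) had 206, 793 and 379 in mock and 723, 2170.5 and 1839 in BAP libraries, a log2 fold change of 1.85 ± 0.58. TT4 (chalcone synthase) had 5049, 16784 and 8985 in mock and 17350.0, 26141 and 24196 in BAP libraries (log2 fold change 1.28 ± 0.42), and the flavonoid glucosyltransferase UGT78D2 had 709, 1414 and 1042 in mock and 1363, 2159 and 1953 in BAP libraries (log2 fold change 0.82 ± 0.29). In TT5 and UGT78D2 BAP 1 lay below mock A, in TT4 the groups did not overlap, and in all of these genes BAP 2 and BAP 3 were the highest libraries. Summed over the list, counts were 19436, 41316 and 29396 in mock and 39295, 65757 and 62985 in BAP libraries. The median was 1.01 without both replicate 1 libraries. All 36 lists, the flavonol list included, were drawn up with earlier results of these data known, so their counts and medians are descriptions.

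The 16 phenylpropanoid and lignin monomer genes all had positive log2 fold changes too, with a median of 0.29 and none called. PAL1, the entry enzyme, had 12966, 18236 and 10903 in mock and 24755, 20731 and 18408 in BAP libraries (log2 fold change 0.62 ± 0.23), and 4CL3, which serves flavonoid synthesis, had 195, 661 and 444 in mock and 550.3, 1739 and 1538 in BAP libraries (log2 fold change 1.56 ± 0.58), and was called with the block. Without both replicate 1 libraries 9 of 16 were positive and the median was 0.03. The sums of this list were 102715, 124100.0 and 77993 in mock and 176807, 123495 and 101791 in BAP libraries, with the xylem marker sums given above also highest in BAP 1.

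The tau class of glutathione transferases, enzymes that conjugate glutathione to reactive compounds, had 22 of 24 positive log2 fold changes and a median of 0.45. GSTU17 was the only one of the 24 called, against 0.13% of all genes called higher. GSTU6 had 644, 1063 and 1169 in mock and 1285, 1773 and 1642 in BAP libraries (log2 fold change 0.74 ± 0.25) and GSTU1 1941, 1904 and 1489 in mock and 3306, 2402 and 2103 in BAP libraries (log2 fold change 0.53 ± 0.20), and both were called with the block. The neighbour of GSTU17 and its close paralogue, GSTU18, had 41.4, 40.0 and 31.0 in mock and 119, 70.3 and 43.6 in BAP libraries, far fewer reads than GSTU17, and how reads shared by both were counted is not given in the sources used here. In the phi class no gene was called and all 7 log2 fold changes were positive (median 0.52). Without both replicate 1 libraries the medians of the classes were 0.21 (17 of 24 positive) and 0.28 (6 of 7).

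Glutathione needs reduced sulfur, and APR3 (AT4G21990, chromosome 4, 11657008 to 11659167), which reduces activated sulfate, was called with 1621, 2304 and 2072 in mock and 2801, 3104 and 3118 in BAP libraries and a log2 fold change of 0.60 ± 0.16. It was the only gene called among 26 of sulfate uptake and assimilation, against 0.13% of all genes called higher. Of the 26, 23 were positive with a median of 0.21, which became 0.03 with 15 positive without both replicate 1 libraries. SULTR3;4 had 41.4, 80.0 and 28.8 in mock and 148, 119 and 93.5 in BAP libraries (log2 fold change 1.35 ± 0.42). APR1, an isoform of APR3, had 683, 995 and 711 in mock and 1626, 1096 and 801 in BAP libraries, with BAP 3 within the range of the mock libraries. DTX40 (AT3G21690), a transporter of the MATE family that exports toxins and metabolites, was called with 246, 345 and 211 in mock and 490.0, 477 and 413 in BAP libraries (log2 fold change 0.81 ± 0.22), and among its relatives DTX33 had 1859, 2535 and 2159 in mock and 2787, 3235 and 3269.9 in BAP libraries and DTX35 925, 2126 and 1077 in mock and 5188, 2717 and 2265 in BAP libraries. DTX33 was called with the block.

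RNS1 (AT2G02990, chromosome 2, 873506 to 874886), a secreted ribonuclease known from wounding and phosphate starvation, showed the largest log2 fold change of the genes called, 2.45 ± 0.56. It had 23.6, 71.3 and 89.9 in mock and 194, 288 and 463 in BAP libraries, so that the mean was 5.12-fold higher after BAP. VSP1, a storage protein that is a classic jasmonate target, was low throughout, with 4.73, 10.4 and 10.3 in mock and 52.0, 23.8 and 34.0 in BAP libraries (log2 fold change 1.99 ± 0.51). CYP94B1, which inactivates jasmonoyl-isoleucine by oxidation, had 73.3, 172 and 88.5 in mock and 381, 212 and 280.5 in BAP libraries (log2 fold change 1.44 ± 0.38). These were the 2 called of 20 jasmonate genes, against 0.13% of all genes called higher. Of the 20, 15 were positive, with a median of 0.20. JAZ9, a repressor of the response, had 68.5, 139 and 72.3 in mock and 212, 159.6 and 166 in BAP libraries (log2 fold change 1.00 ± 0.32). In VSP1 and CYP94B1 BAP 1 was highest, and without both replicate 1 libraries the list had 10 of 20 positive and a median of -0.01. None of the 17 early wound and touch genes was called (against 0.151% of all genes), with a median of -0.10, or -0.38 with 4 positive without both replicate 1 libraries.

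KIN1 (AT5G15960, chromosome 5, 5209717 to 5210826), a small hydrophilic protein known from cold and abscisic acid, had 28.4, 84.4 and 50.9 in mock and 208, 157 and 141 in BAP libraries and a log2 fold change of 1.73 ± 0.42. Its neighbour and close paralogue KIN2 had 640.4, 2823 and 1479.7 in mock and 5794, 3459 and 2772 in BAP libraries (log2 fold change 1.46 ± 0.54), and reads of the pair may have been split. Of the 11 cold and abscisic acid genes tested 1 was called, against 0.13% of all genes called higher. In this list 10 were positive, with the highest median of all lists, 1.09. That median was 0.07 without both replicate 1 libraries. RD29A was among those highest in BAP 1, with 305, 233 and 59.0 in mock and 1678, 353 and 280.5 in BAP libraries. P5CS1, the proline synthesis enzyme, went the other way, with 5720.1, 4931 and 4828 in mock and 4157, 3795 and 3815 in BAP libraries, groups that did not overlap and a log2 fold change of -0.39 ± 0.12, which was called with the block.

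The remaining genes called higher were of several kinds. PSK5 (AT5G65870), a precursor of the growth-promoting peptide phytosulfokine, had 31.9, 69.6 and 35.4 in mock and 112, 145 and 95.6 in BAP libraries (log2 fold change 1.41 ± 0.37). AT3G25570, an S-adenosylmethionine decarboxylase of polyamine synthesis, had 49.6, 48.7 and 49.4 in mock and 87.6, 106 and 85.0 in BAP libraries (log2 fold change 0.89 ± 0.24), with mock libraries that lay within 1 count of each other. PRN (AT3G59220), a pirin, had 1101, 1061 and 874 in mock and 1960.2, 1527 and 1628 in BAP libraries (log2 fold change 0.75 ± 0.15). CP1, a calcium-binding protein, had 1476, 2057 and 1531 in mock and 2853, 2764 and 2293 in BAP libraries (log2 fold change 0.65 ± 0.17). ENODL2, an early nodulin-like protein of the cell surface, had 66.2, 97.4 and 87.0 in mock and 162, 133 and 159 in BAP libraries (log2 fold change 0.86 ± 0.24).

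Genes called higher included 3 transcription factors of the bHLH family, whose share among the genes tested was not counted. UPB1 (UPBEAT1, AT2G47270, chromosome 2, 19411430 to 19412328), which represses peroxidase genes at the border of the elongation zone, had 743, 831 and 719.6 in mock and 1040.3, 1027 and 1111 in BAP libraries (log2 fold change 0.47 ± 0.12). AT1G62975 had 489, 671 and 561 in mock and 2137, 968 and 977 in BAP libraries (log2 fold change 1.15 ± 0.33) and AT4G25400 had 324, 411 and 351 in mock and 721, 547 and 526 in BAP libraries (log2 fold change 0.72 ± 0.18). In UPB1 the BAP libraries lay close together, whereas AT1G62975 was far higher in BAP 1 than elsewhere. Without both replicate 1 libraries the log2 fold change of UPB1 was 0.47 and that of AT1G62975 0.66.

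The last 4 genes called higher have little known of them or a role at variance between annotations. AT2G23910, with a Rossmann fold, had 533, 1209 and 667 in mock and 1946, 2070.4 and 1738 in BAP libraries (log2 fold change 1.34 ± 0.29), and AT4G01870, a tolB-like protein, had 889, 1152 and 1352 in mock and 1839.7, 1659 and 1681 in BAP libraries (log2 fold change 0.63 ± 0.17). The non-coding RNA AT5G09765 had 15.4, 8.7 and 14.7 in mock and 43.8, 31.0 and 35.1 in BAP libraries (log2 fold change 1.46 ± 0.41). RAD52-2 (AT5G47870), whose symbol names a DNA repair protein, had the smallest log2 fold change of the genes called higher, 0.44 ± 0.12, with 648, 706 and 667 in mock and 876, 959 and 908 in BAP libraries.

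Of the 4 genes called lower, HSP90.1 (AT5G52640, chromosome 5, 21352557 to 21355147), the heat-inducible cytosolic HSP90 chaperone, had 562, 458 and 462 in mock and 292, 245 and 306 in BAP libraries and a log2 fold change of -0.81 ± 0.17. All 3 BAP libraries lay far below the mock libraries, and the log2 fold change was -0.75 without both replicate 1 libraries. It was the only gene called among 26 heat shock and chaperone genes, against 0.0208% of all genes called lower. Of the 26, 5 were positive, with a median of -0.24, the lowest of the 36 lists with all 6 libraries. With both replicate 1 libraries left out it was -0.16, and those of 8 other lists were lower. HOP3, a co-chaperone, had 1330.5, 1075 and 1144 in mock and 962, 1036 and 919 in BAP libraries (log2 fold change -0.28 ± 0.13), whereas HSP18.2 had 4.73, 12.2 and 10.3 in mock and 30.1, 28.6 and 10.6 in BAP libraries (log2 fold change 1.22 ± 0.61).

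TET15 (AT5G57810), a tetraspanin of the plasma membrane, showed the largest decrease at low counts, with 18.9, 15.7 and 22.1 in mock and 2.74, 7.15 and 2.12 in BAP libraries (log2 fold change -2.11 ± 0.59). CYP96A8, a cytochrome P450, had 162, 149 and 145 in mock and 84.9, 105 and 72.2 in BAP libraries (log2 fold change -0.80 ± 0.23). JAL8 (AT1G52050, chromosome 1, 19354919 to 19356901), a jacalin-type lectin, had 4482, 4637 and 4121 in mock and 3300.3, 3414 and 2895 in BAP libraries (log2 fold change -0.46 ± 0.12). The next genes on the chromosome are its paralogues JAL9, with 9619, 10836 and 8622 in mock and 6982, 7732 and 6078 in BAP libraries (log2 fold change -0.48 ± 0.15), and JAL10, with 16999.5, 17298 and 17254 in mock and 11849, 14736 and 12366 in BAP libraries (log2 fold change -0.41 ± 0.14). In all 3 every BAP library was below every mock library, which held for 2.29% of all genes tested, and as near copies they may share reads. Over the 10 jacalin lectins tested the median was 0.16 with 6 positive, and -0.37 with none positive once both replicate 1 libraries were left out. In the same libraries the root cap markers CEL5 and NAC070 were lower after BAP in every library, with 2737, 2499.7 and 2939 in mock and 2094, 2132 and 2195 in BAP libraries and 419, 478 and 514 in mock and 329, 384 and 251 in BAP libraries. The root cap list of 10 genes summed to 7209, 8183 and 7239 in mock and 7289, 6595 and 5127 in BAP libraries, with 2 positive and a median of -0.21 (-0.43 with 1 positive without both replicate 1 libraries), and the part of this in the jacalin counts was not tested.

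Genes of light signalling and of the clock were described as groups. All 13 HY5 and light response genes had positive log2 fold changes, against 51.9% of all genes tested, with a median of 0.55 and none called. In 4 of them every BAP library lay above every mock library, against 2.96% of all genes tested. This list too was drawn up with earlier results of these data known, so these shares only describe it. RUP2, a repressor of the UV-B receptor, had 309.6, 409 and 380.4 in mock and 550.3, 500.3 and 550.3 in BAP libraries (log2 fold change 0.55 ± 0.16), and BBX20, a B-box cofactor of HY5, had 357, 807 and 369 in mock and 1006, 933 and 1062 in BAP libraries (log2 fold change 1.07 ± 0.32). ELIP1, a chlorophyll-binding protein induced by strong light, had 234, 628 and 376 in mock and 558, 1446 and 933 in BAP libraries (log2 fold change 1.25 ± 0.45), and with the block RUP2 and ELIP1 were called. The median was 0.33 without both replicate 1 libraries, with 12 of 13 positive. The clock gene PRR7 had 158, 106 and 125 in mock and 207, 203 and 198 in BAP libraries (log2 fold change 0.66 ± 0.21), with a list median of 0.20 and none of 14 called, and a median of 0.01 with 7 positive without both replicate 1 libraries.

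Among hormone genes, EBF2, which targets the ethylene factor EIN3 for degradation, had 1097, 1059 and 1238 in mock and 1435, 1543 and 1873 in BAP libraries (log2 fold change 0.51 ± 0.14), and the ethylene synthesis gene ACS7 had 47.3, 114 and 56.0 in mock and 186, 112 and 129.6 in BAP libraries (log2 fold change 1.04 ± 0.39). EBF2 was higher in every BAP library than in any mock library, lay just outside the threshold, and was called with the block. The auxin repressor IAA2 had 865, 1077 and 815 in mock and 1511, 1206 and 1166 in BAP libraries (log2 fold change 0.49 ± 0.17) and DAO2, of the family that oxidises auxin, had 11.8, 50.4 and 25.1 in mock and 209, 59.6 and 68.0 in BAP libraries (log2 fold change 1.89 ± 0.67). None of 18 ethylene, 16 Aux/IAA and auxin turnover and 9 auxin carrier genes was called, against 0.151% of all genes, and the medians were 0.19, 0.23 and -0.04. Without both replicate 1 libraries these were 0.09, 0.09 and 0.01. The carrier PIN7, which CK is known to affect, had 1673, 1406 and 1534 in mock and 1927, 1499 and 1598 in BAP libraries, with groups that overlapped.

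Cell type markers gave no calls, against 0.151% of all genes, except RSL4 with the block, where 0.307% of all genes were called higher. The 20 dividing cell genes had a median of -0.13 with 1 positive, and -0.01 with 10 positive when both replicate 1 libraries were left out. Root hair markers had a median of 0.16 (15 of 18 positive) that became -0.22 (3 of 18). RSL4, the factor that drives hair growth, nevertheless had 619, 1077 and 948 in mock and 1246, 1303 and 1302 in BAP libraries (log2 fold change 0.58 ± 0.21), with all BAP libraries above all mock libraries. The 18 xylem genes had a median of 0.16, which became -0.01, and the 14 phloem genes one of 0.18, which became -0.01. The 9 root stem cell and meristem genes had a median of -0.02 with 4 positive. Without both replicate 1 libraries it was 0.09 with 6 positive. Among them, the meristem gene PLT2 had 349, 292 and 414 in mock and 149, 307 and 329 in BAP libraries, and WOX5 of the quiescent centre had 16.5, 8.7 and 10.3 in mock and 54.8, 11.9 and 25.5 in BAP libraries, both with overlap.

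**Figure D4:**
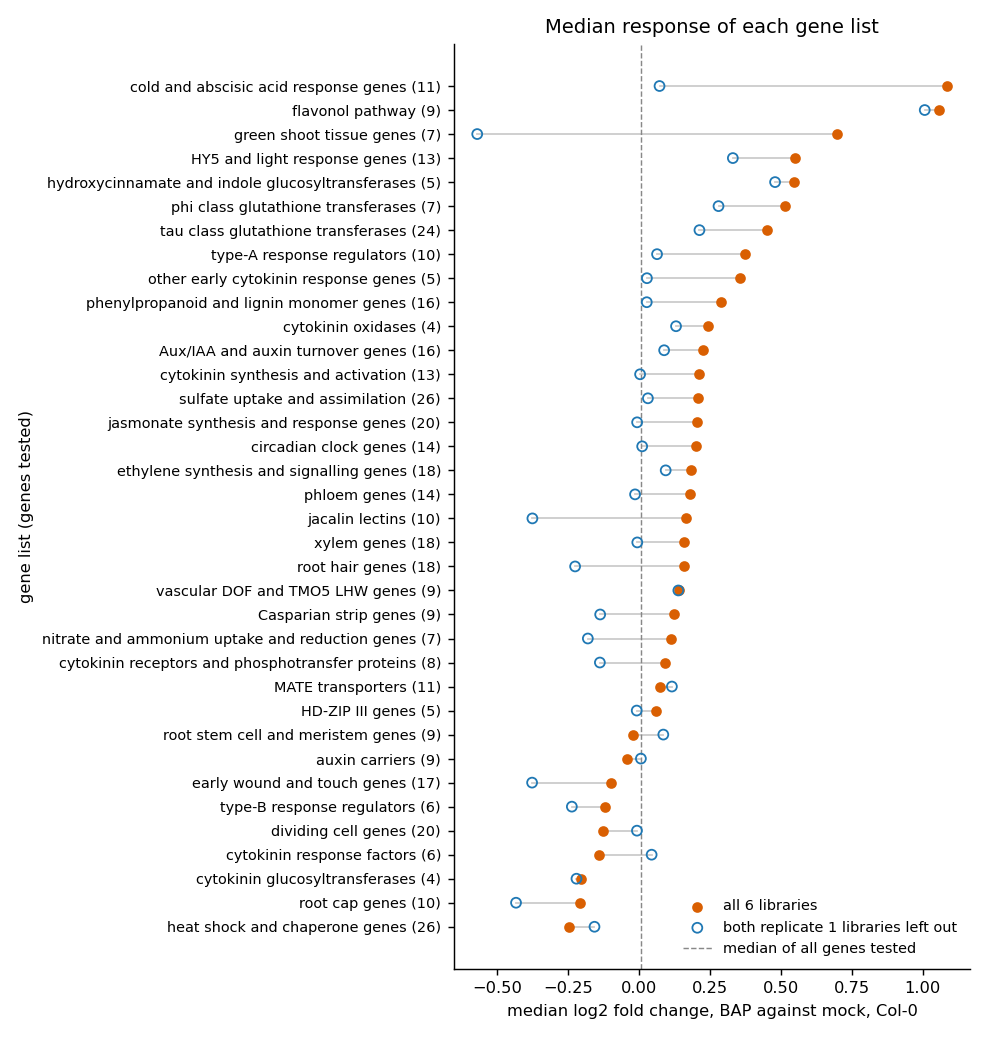
Median log2 fold change, BAP against mock in Col-0, of the 36 gene lists with all 6 libraries (filled) and with both replicate 1 libraries left out (open), and of all 19206 genes tested (dashed line); numbers of genes tested are in brackets. The flavonol median stays near 1 in both, while the cold, green tissue, jacalin and root hair medians move toward or below 0.

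The same genes were then read in the ago10-1 libraries, which the Col-0 fit had not used. There 91 genes were called higher (0.474%) and 18 lower (0.0937%). Of the 25 genes called higher in Col-0, all had a positive log2 fold change in ago10-1, against 52.1% of all genes tested, 17 had groups that did not overlap, against 4.61%, and 12 were called, that is 48.0% of the Col-0 list and 13.2% of the ago10-1 list. With the block in ago10-1, 15 of the 25 were called, against 1.92% of all genes called higher and 0.276% lower. Their median log2 fold change was 1.34 in Col-0, where they had been chosen, and 0.94 in ago10-1. AT5G16010 had 181, 177 and 153 in the ago10-1 mock libraries and 692, 436 and 695 in its BAP libraries (log2 fold change 1.80 ± 0.21). KIN1 had 63.6, 71.9 and 30.2 and 254, 178 and 256 (log2 fold change 2.11 ± 0.35), and GSTU17 147, 275 and 153 and 398, 517 and 490.5 (log2 fold change 1.34 ± 0.26). Log2 fold changes in ago10-1 were smaller than in Col-0 for AT5G09765, at 0.44 ± 0.54, and for UPB1, at 0.21 ± 0.18. The interaction was not past the threshold for either. Mean counts of UPB1 were 1063 in ago10-1 mock and 1253 in ago10-1 BAP, beside 765 in Col-0 mock and 1059 in Col-0 BAP.

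Of the 4 genes called lower in Col-0, none was called in ago10-1 without the block. HSP90.1 had 741, 429 and 478 and 447, 309 and 205 there, a log2 fold change of -0.81 ± 0.32 close to that in Col-0, and it was called there with the block. TET15 had 7.34, 20.5 and 19.0 and 4.5, 10.4 and 12.2 (log2 fold change -0.71 ± 0.62). CYP96A8 and JAL8 had log2 fold changes of the opposite sign, 0.62 ± 0.63 and 1.03 ± 0.76, from 3477, 487 and 3213 JAL8 counts in mock and 3781, 2027 and 6094 in BAP, and the library ago10-1 mock 2 was also lowest for the root cap list, which summed to 7594, 2458 and 7394 in ago10-1 mock and 9238, 5361 and 10507 in ago10-1 BAP. The 10 jacalin lectins and the 10 root cap genes tested all had positive log2 fold changes in ago10-1, with medians of 0.82 and 0.69. The interaction of genotype and treatment did not reach a p under 0.01 or 0.05 for any of the 29 genes, with or without the block. Over all genes tested 4 (0.0208%) passed the threshold of 0.01 for the interaction, none of them called in Col-0, and 89 had an unadjusted p under 0.05. With the block 12 genes (0.0625%) passed it, the same 4 among them.

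**Figure D5:**
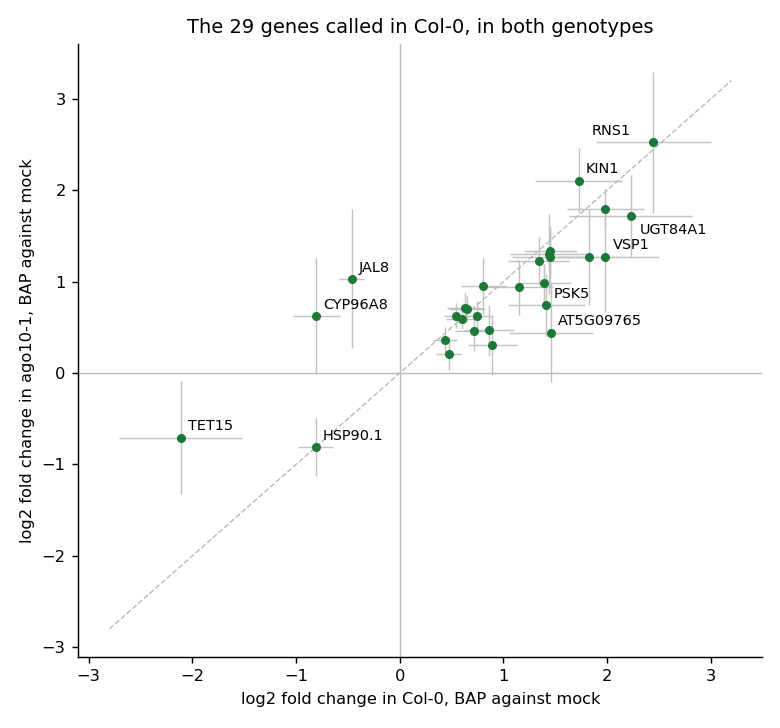
log2 fold change after BAP in Col-0 (horizontal) and in ago10-1 (vertical) of the 29 genes called in Col-0, with standard errors; the dashed line marks equal values. All 25 genes called higher in Col-0 lie above 0 in ago10-1, and JAL8 and CYP96A8 have opposite signs.

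The values of the type-A regulators in ago10-1 are set beside those in Col-0. RR3 had a log2 fold change of 0.40 ± 0.13 in ago10-1, from 2140.1, 2599 and 2312 in mock and 3138, 2689 and 3473 in BAP. ARR9 had 0.39 ± 0.13 and ARR7 1.40 ± 0.50. In ago10-1 9 of the 10 were positive with a median of 0.35, beside 8 of 10 and 0.38 in Col-0. The flavonol list stood at a median of 0.83 in ago10-1 with 8 of 9 positive, and the jasmonate list at -0.22 with 7 of 20 positive, beside 15 of 20 in Col-0. A p over the threshold in these interactions does not show that the genotypes responded alike.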

How the data were processed

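Root tips of Col-0 and ago10-1, mock or BAP, were sequenced in 12 libraries. Per the study's methods the authors aligned reads with STAR, counted them per TAIR10 gene with featureCounts and normalised with DESeq2; versions and strandedness are not given in the sources used here. The deposited signal is the count divided by the library's size factor, which was checked by recovering whole reads for 100% of the values (tolerance 1e-06). BAP was compared with mock in Col-0 by limma 3.58.1 (limma-trend, two-sided) on log2(value + 1), for genes with a mean of at least 10, at an unadjusted p under 0.01, with Benjamini-Hochberg adjustment beside it. The cutoff of 0.01 was taken from the study, which assessed differential expression with DESeq2. Counts of called genes are therefore not comparable with its counts. Alternatives were pseudocounts of 0.5 and 5, a mean of at least 50 or none, edgeR 4.0.16 (quasi-likelihood) and DESeq2 1.42.0 on recovered reads, total counts, all 12 libraries, a replicate block and each library left out. For the block, replicate numbers were taken to pair the samples, which is an assumption. Deviations from the group means correlated at 0.55 for the Col-0 pair with a known number (mock 1 and BAP 1). BAP 1 correlated at 0.29 with mock A and at -0.75 with mock B. The ago10-1 pairs of equal number gave 0.67, 0.41 and 0.43. Pairs of unlike number were not compared in ago10-1, so these values do not show that the numbers pair the samples. In Col-0 the block could only set replicate 1 against the others. Named were all called genes, the type-A and HD-ZIP III genes, AGO10, up to 4 genes of smallest p of each of 36 lists, and neighbours that may share reads. Members and lists were chosen with earlier results of these data known. Coordinates are those of RefSeq TAIR10.1; 458 of 458 gene positions listed by the study equal them. Gene IDs matched RefSeq for 32548 of 32833. Replicates are labelled biological, and p-values weigh the difference between groups against the spread between these samples.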

Additional observations from a re-analysis of the deposited data

Results flagged for a closer look

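For 4 genes, which were singled out after their values had been seen, the response to BAP differed between the genotypes at an unadjusted p under 0.01 in limma's test of the interaction over all 12 libraries; for each the adjusted p rounded to 1. The difference of the log2 fold changes, ago10-1 minus Col-0, was -1.03 ± 0.25 for TIFY10B, a jasmonate repressor, with 289, 359 and 373 in mock and 497, 419 and 322 in BAP libraries in Col-0 and 684, 643 and 849 in mock and 410.2, 433 and 429 in BAP libraries of ago10-1. It was -1.28 ± 0.36 for AIB, a bHLH factor, with 73.3, 78.3 and 76.7 in mock and 82.1, 81.0 and 76.5 in BAP libraries in Col-0 and 186, 182 and 229 and 53.9, 111 and 102 in ago10-1. It was -0.92 ± 0.23 for LpxB, with 96.9, 103 and 91.4 in mock and 145, 142 and 136 in BAP libraries in Col-0, where the groups did not overlap, and 125, 129.5 and 116 and 103, 101 and 80.6 in ago10-1, where they did not overlap in the opposite direction. It was 0.57 ± 0.18 for IDD4, a zinc finger factor, with 249, 221 and 241 in mock and 226, 198 and 228 in BAP libraries in Col-0 and 187, 214 and 201 and 281, 273 and 268 in ago10-1.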

How the results depend on the processing

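The fit of the 6 libraries called 25 genes higher and 4 lower, with 0 at an adjusted p under 0.05, 12 called in both genotypes and 4 with an interaction p under 0.01. Without a filter on low values the counts were 60, 78, 6 and 51 (12 shared); DESeq2 gave 57, 17, 4, 32 shared and 13, and all 12 libraries in 1 fit 56, 19 and 20 shared. A mean of at least 50 left 2 lower. With replicate 1 set against the others as a replicate block, the counts were 59, 8, 34 shared and 12; 27 of the 29 genes remained. The replicate number as a replicate block in ago10-1 alone gave 17 shared. Leaving out both replicate 1 libraries, chosen after seeing the data, gave 42, 26, 27 shared and 18. Leaving out 1 library at a time gave 7 (without mock B or BAP 2) to 49 (without mock A) higher, 1 to 40 (without BAP 1) lower, 4 to 24 shared and 4 to 39 by interaction; without mock 1, 9 genes were higher. The cause was not tested.

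No called gene changed sign, and 5 of the 29 stayed past the threshold in every alternative. Among the 96 named genes followed through the alternatives, signs of 11 uncalled genes did change. Other genes were not counted here, and list members beyond these changed sign too. Without both replicate 1 libraries, positive genes went from 15 to 3 of 18 for root hairs and from 1 to 10 of 20 for dividing cells. With both replicate 1 libraries left out, log2 fold changes were -0.104 for ARR5, -0.084 for ARR6, -0.304 for ARR15, -0.0783 for REV, 0.0753 for PHB, -0.0442 for ATHB-15, -0.00741 for HB-8 and 0.306 for AGO10; ARR15 was -0.178 by edgeR and -0.175 by DESeq2, and REV -0.0192 with total counts. Leaving out 1 library at a time gave ranges of -0.0333 to 0.707 for ARR3, -0.0864 to 0.465 for ARR5, -0.739 to 0.785 for ARR15, -0.865 to 0.195 for RR16, -0.71 to 0.335 for RR17, -0.169 to 0.129 for REV, -0.193 to 0.0243 for PHB, -0.0929 to 0.234 for ATHB-15, -0.0273 to 0.12 for HB-8 and -0.265 to 0.179 for AGO10.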
